A study of Homo sapiens with 2 samples.

Results

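The RAB genes encode small GTPases of the RAS superfamily, and were taken here as every gene whose symbol is RAB followed by a number and at most 1 letter. Among 23024 gene identifiers listed in either library, 62 met this rule, 54 of them had a value in both libraries, and 47 had a mean level of at least 1 FPKM (fragments per transcript length and library size). The libraries were made from total RNA of A549, an established cell line from a human lung adenocarcinoma. One culture had been stably transduced with the empty retroviral vector and the other with a retrovirus carrying ATOH8, a basic helix-loop-helix (bHLH) transcription factor. Each group held 1 library, so no difference below has a replicate error or a p-value, and each compares these 2 libraries.

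RAB proteins switch between an active GTP-bound and an inactive GDP-bound form. Exchange factors load them with GTP, GTPase-activating proteins turn them off, and escort proteins present newly made RABs for the prenylation that anchors them in membranes. Each RAB marks particular membranes: RAB5 early endosomes, RAB4 and RAB11 recycling endosomes, RAB7 late endosomes, RAB1 and RAB2 the traffic between endoplasmic reticulum (ER) and Golgi, RAB6 the Golgi, and RAB3, RAB8, RAB10 and RAB27 vesicles on their way to the plasma membrane. Many exist as paralogs with overlapping functions.

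In the files the ATOH8 gene stood at 0.786 FPKM (vector) and 182 FPKM (ATOH8). Of 10 genes chosen as epithelial and A549 markers, all were listed in both libraries, among them the keratin genes KRT8 (2381 and 2302 FPKM) and KRT18 (2486 and 2012 FPKM) and the aldo-keto reductase gene AKR1B10 (2938 and 2355 FPKM), whereas KRT19 was at 0.219 and 0.0700 FPKM. The E-cadherin gene CDH1 was at 15.4 and 54.1 FPKM and the aldo-keto reductase gene AKR1C1 at 691 and 1088 FPKM, and by the call rule that follows these 2 of the 9 markers with a mean of at least 1 FPKM were called higher and 0 lower. Of all 12342 genes with such a mean 12.8% were called higher and 9.46% lower, and nothing is read from the marker count. Genes marking leukocytes, endothelium or fibroblasts (8 genes) summed to 0.191 FPKM (vector) and 0.579 FPKM (ATOH8), and CD3E was listed in neither. The vector file listed 20966 genes and the ATOH8 file 20870, and the read depth, not given in the sources used here, leaves the counting error of a value unknown. Genes with a mean of at least 5 FPKM had a median log2 fold of -0.36, and folds below are given relative to it. A relative log2 fold is log2(ATOH8 + 1) minus log2(vector + 1) less this median. The added 1 draws the log2 fold of genes with low FPKM towards no change, which understates their large changes. Taking off the negative median then shifts such genes towards positive values. RAB30, at 1.34 and 1.01 FPKM, thus has a relative log2 fold of 0.14. A gene is called higher or lower at a relative fold of at least 2.

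As ATOH8 belongs to the bHLH class, whose members bind E-boxes, 5 promoters are shown for the letters CANNTG, which read the same on both strands and are printed in capitals. They are those of RAB10 and RAB18, the 2 genes called lower, of RAB5B and RAB3A, which were called higher (RAB3A held the most matches of the 38 windows examined), and of RAB5A, the paralog of RAB5B with the widest difference from it. Each sequence runs 5′ to 3′ on the gene's strand, from 250 bases before to 50 bases after the RefSeq start (GRCh38.p14).
RAB10: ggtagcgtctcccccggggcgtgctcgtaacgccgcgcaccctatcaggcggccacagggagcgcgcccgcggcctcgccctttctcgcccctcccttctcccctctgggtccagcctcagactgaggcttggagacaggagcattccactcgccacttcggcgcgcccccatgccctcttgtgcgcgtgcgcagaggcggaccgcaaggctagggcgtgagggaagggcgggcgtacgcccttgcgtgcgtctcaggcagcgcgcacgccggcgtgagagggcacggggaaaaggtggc
RAB18: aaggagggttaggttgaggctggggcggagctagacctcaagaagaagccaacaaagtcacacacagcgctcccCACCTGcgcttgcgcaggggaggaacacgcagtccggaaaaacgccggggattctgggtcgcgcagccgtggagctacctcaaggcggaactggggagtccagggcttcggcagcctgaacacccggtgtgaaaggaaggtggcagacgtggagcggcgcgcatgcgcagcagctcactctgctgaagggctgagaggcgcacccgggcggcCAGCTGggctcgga
RAB5A: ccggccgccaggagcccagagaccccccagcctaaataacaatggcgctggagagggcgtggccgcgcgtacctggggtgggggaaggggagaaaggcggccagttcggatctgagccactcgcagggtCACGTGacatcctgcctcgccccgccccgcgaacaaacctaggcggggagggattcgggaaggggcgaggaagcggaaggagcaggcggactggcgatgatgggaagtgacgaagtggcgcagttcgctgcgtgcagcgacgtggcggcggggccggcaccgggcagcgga
RAB5B: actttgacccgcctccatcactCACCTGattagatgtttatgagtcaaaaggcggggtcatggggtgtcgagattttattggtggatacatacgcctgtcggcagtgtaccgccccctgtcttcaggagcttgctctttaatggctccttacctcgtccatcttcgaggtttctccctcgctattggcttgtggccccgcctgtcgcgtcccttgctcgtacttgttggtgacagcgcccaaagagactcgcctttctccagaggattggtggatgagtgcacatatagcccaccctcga
RAB3A: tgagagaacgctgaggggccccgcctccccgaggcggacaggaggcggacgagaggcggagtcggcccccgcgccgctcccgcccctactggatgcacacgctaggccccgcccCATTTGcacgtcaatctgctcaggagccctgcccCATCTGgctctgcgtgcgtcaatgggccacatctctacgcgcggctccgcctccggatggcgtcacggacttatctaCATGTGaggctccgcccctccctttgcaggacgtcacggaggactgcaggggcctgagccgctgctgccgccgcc

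These windows lie at chr2:26033834-26034133 (plus strand, RAB10), chr10:27504054-27504353 (plus, RAB18), chr3:19946847-19947146 (plus, RAB5A), chr12:55973699-55973998 (plus, RAB5B) and chr19:18203993-18204292 (minus, RAB3A). The RAB10 window held 0 matches, RAB18 held 2, RAB5A and RAB5B 1 each and RAB3A 3. Of the other genes called higher that had a window, RAB43 held 0, RAB3D 1 and RAB4B 2. Promoter windows could be matched for 38 of the 47 RAB genes, not for RAB1A, RAB2A, RAB12, RAB15, RAB20, RAB26, RAB33B, RAB36 and RAB37. Of the 38 windows, 25 (65.8%) held CANNTG, against 68.7% of 35114 promoters of the same length, and 8 (21.1%) held CAGCTG, a subset of those matches, against 17.9%. CACGTG, another subset, was in 6 windows (15.8%) against 7.26% of all promoters. The other 2 subsets counted were rarer in RAB windows. CAGATG, read on either strand, was in 2 (5.26%) against 14.7%, and CATATG in 0 against 3.04%. The RAB promoters had a median GC content of 68.0%, against 58.7% for all promoters. These are counts of letters in a window and no binding was measured.

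RAB transcripts were spread over a wide range of levels, and the top of that range changed between the libraries. RAB10, which serves vesicle delivery to the plasma membrane, was the most abundant RAB gene of the vector library at 207 FPKM and ranked 4 in the ATOH8 library at 62.5 FPKM. RAB5C, of the early endosome, ranked 2 in the vector library (123 FPKM) and 1 in the ATOH8 library (105 FPKM). RAB34, which acts in Golgi-dependent and ciliary traffic, ranked 6 (71.4 FPKM) and then 2 (96.4 FPKM), and RAB1B, of ER-to-Golgi traffic, moved from rank 8 (61.7 FPKM) to rank 3 (66.9 FPKM). Neighbours in these orders cannot be told apart with 1 library each. The 47 RAB genes summed to 1307 FPKM (vector) and 964 FPKM (ATOH8). These sums are 0.248% and 0.192% of the FPKM of all symbols listed in both libraries. RAB10 alone made up much of this gap: without it the sums were 1099 and 901 FPKM.

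**Figure D1:**
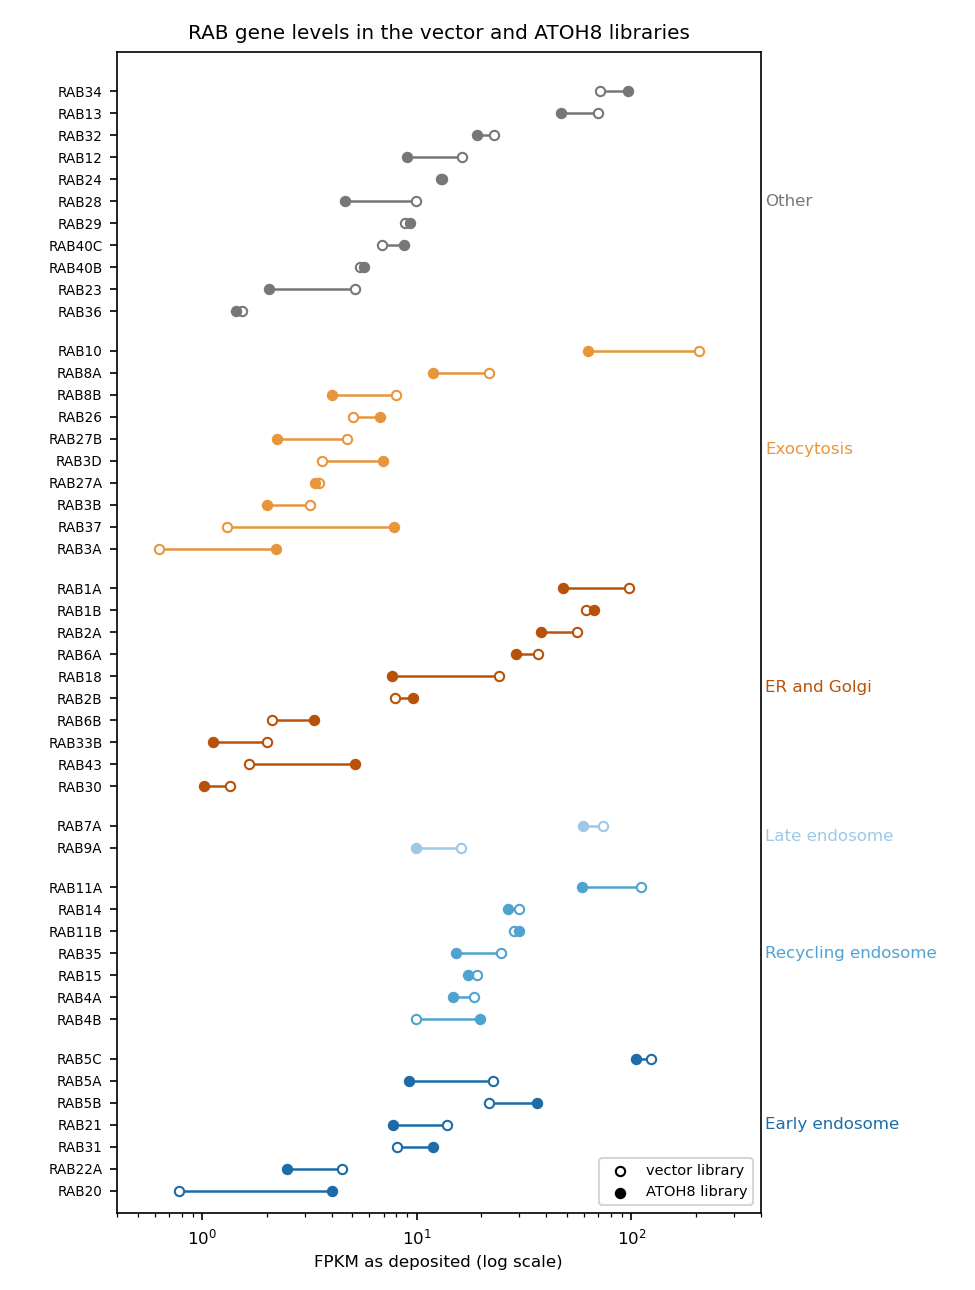
Level of each of the 47 RAB genes in FPKM (log scale), open circles for the vector library and filled circles for the ATOH8 library, grouped by the membrane each RAB acts on. RAB10 spans 207 to 62.5 FPKM, while RAB37, RAB20, RAB43 and RAB3A start below 2 FPKM in the vector library and lie above 2 FPKM in the ATOH8 library.

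As a family the RAB genes were spread much as other genes were. Of the 47, 7 were called higher (14.9%), against 12.8% of the 12342 genes with a mean of at least 1 FPKM, and 2 were called lower (4.26%), against 9.46%. RAB20 and RAB3A, among the 7, were under 1 FPKM in the vector library and reached the mean of 1 FPKM only through the ATOH8 library, so the filter itself favoured a higher call for them. Their median relative log2 fold was 0.13 and that of all genes tested was 0.06. Their middle range, from the lower to the upper quartile, ran from -0.35 to 0.63 and that of all genes from -0.47 to 0.61. These shares lie near those of the whole transcriptome, and nothing is read from them about the family. With FPKM as deposited, without centring, 3 RAB genes were at least 2-fold higher (6.24% of all genes) and 5 at least 2-fold lower (19% of all genes). On that scale 17 RAB genes lay above 0 and 30 below, whereas relative to the median gene 28 lay above and 19 below. The relative scale shifts genes with low FPKM upwards, and on it 6540 of all genes tested lay above and 5801 below.

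The 2 RAB genes called lower were RAB10 and RAB18. RAB10 (ENSG00000084733, a protein-coding gene on chromosome 2 from 26034107 to 26137454, plus strand, GRCh38 as annotated in GENCODE 29) was at 207 FPKM (vector) and 62.5 FPKM (ATOH8), a relative log2 fold of -1.35. RAB18 (ENSG00000099246, chromosome 10, 27504174 to 27542237, plus strand), which acts at the ER and on lipid droplets, was at 24.0 and 7.69 FPKM, a relative log2 fold of -1.17. Next to them, within 2-fold of the median gene, came RAB5A (22.6 and 9.20 FPKM, -0.85), RAB1A (97.9 and 48.0 FPKM, -0.65), the Hedgehog-pathway RAB23 (5.14 and 2.05 FPKM, -0.65) and the ciliary RAB28 (9.92 and 4.63 FPKM, -0.60). Both genes called lower have AT-rich transcripts, of 41.0% GC for RAB10 and 37.5% for RAB18, against a median of 48.5% over all genes tested.

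The 7 RAB genes called higher were led by members with low levels in the vector library. RAB37 (ENSG00000172794, chromosome 17, 74670578 to 74747335, plus strand), which serves regulated secretion, was at 1.30 FPKM (vector) and 7.81 FPKM (ATOH8), with a relative log2 fold of 2.30. RAB20 (ENSG00000139832, chromosome 13, 110523066 to 110561733, minus strand), of endosome and phagosome maturation, was at 0.778 and 4.01 FPKM, a relative log2 fold of 1.85. RAB43 (ENSG00000172780, chromosome 3, 129087569 to 129122801, minus strand), of the Golgi, was at 1.64 and 5.15 FPKM (1.58). Unlike these, RAB5B and RAB4B, of early and recycling endosomes, were well above 5 FPKM in both libraries. RAB5B stood at 21.6 and 36.5 FPKM (1.09) and RAB4B at 9.96 and 19.7 FPKM (1.28). The remaining 2 were the regulated secretion genes RAB3A (0.626 and 2.198 FPKM, 1.33) and RAB3D (3.63 and 6.98 FPKM, 1.15).

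The file's locus was shared with other listed genes for 6 of these 9 genes, and for 25 of the 47 RAB genes (53.2%), against 53.3% of all genes tested, so that the authors' estimate could split reads between neighbours. RAB37 shared its locus with SLC9A3R1, a scaffold protein gene at 34.7 FPKM (vector) and 81.2 FPKM (ATOH8). It also shared it with RP11-452I5.2, at 4.47 and 9.64 FPKM, a relative log2 fold of 1.32. RAB43 shared its locus with ISY1 (7.77 and 3.95 FPKM) and with the readthrough transcript ISY1-RAB43 (2.29 and 1.87 FPKM). In FPKM both were lower in the ATOH8 library, where RAB43 was higher. Relative to the median gene ISY1 was at -0.47 and ISY1-RAB43 at 0.16. RAB4B shared its locus with EGLN2 (42.6 and 32.0 FPKM), RAB4B-EGLN2 (0.695 and 1.04 FPKM) and MIA-RAB4B (0.144 and 0.0553 FPKM). Other listed genes lay there too, among them CTC-490E21.11 (0.700 and 2.27 FPKM). RAB3D lay with TMEM205 (75.4 and 109 FPKM) and RAB3A with MPV17L2 (10.8 and 6.54 FPKM). RAB5B shared its locus with RP11-603J24.7, listed only in the vector library at 0.0635 FPKM. The part of these neighbours in the RAB values was not tested. RAB10, RAB18 and RAB20 had a locus of their own, and among the 22 RAB genes with such a locus 1 was called higher (RAB20) and 2 lower. Over all genes tested, with shared or own locus, 12.8% were called higher and 9.46% lower, and nothing is read from these counts.

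In the authors' deposited table of differential expression, 6 of the 54 RAB genes with a value in both libraries were marked: RAB37 (log2 ratio 2.58), RAB20 (2.37) and RAB43 (1.65) up, and RAB39A (-3.67), RAB10 (-1.73) and RAB18 (-1.64) down. The marks amount to 5.56% of the RAB genes in each direction. Across 18812 identifiers with a value in both libraries, the authors' deposited table marked 4.33% up and 10.2% down. These log2 ratios are ratios of the same 2 libraries, so they are no second measurement. RAB39A, of late endosomes and phagosomes, was at 0.951 FPKM (vector) and 0.0747 FPKM (ATOH8), under the mean of 1 FPKM that was asked of a gene here.

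Endocytic and secretory RAB genes had nearly the same centre. The 16 endocytic genes, of early, recycling and late endosomes, had a median relative log2 fold of 0.09, with 3 called higher (18.8%) and 0 lower. The 20 secretory genes, of ER, Golgi and exocytosis, also had a median of 0.09, with 4 called higher (20%) and 2 lower (10%). Over all genes tested these shares were 12.8% and 9.46%, and with so few genes a class nothing is read from the counts. The difference of the medians, endocytic minus secretory, was 0.0035, and it lay between -0.18 and 0.28 under the alternative settings. Summed FPKM gave another view, since it is set by the abundant genes: the endocytic sum went from 526 to 428 FPKM (a ratio of 0.815) and the secretory sum from 550 to 319 FPKM (0.581), while all genes tested had a ratio of 0.953. Without RAB10 the secretory sum went from 343 to 257 FPKM (0.750).

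**Figure D2:**
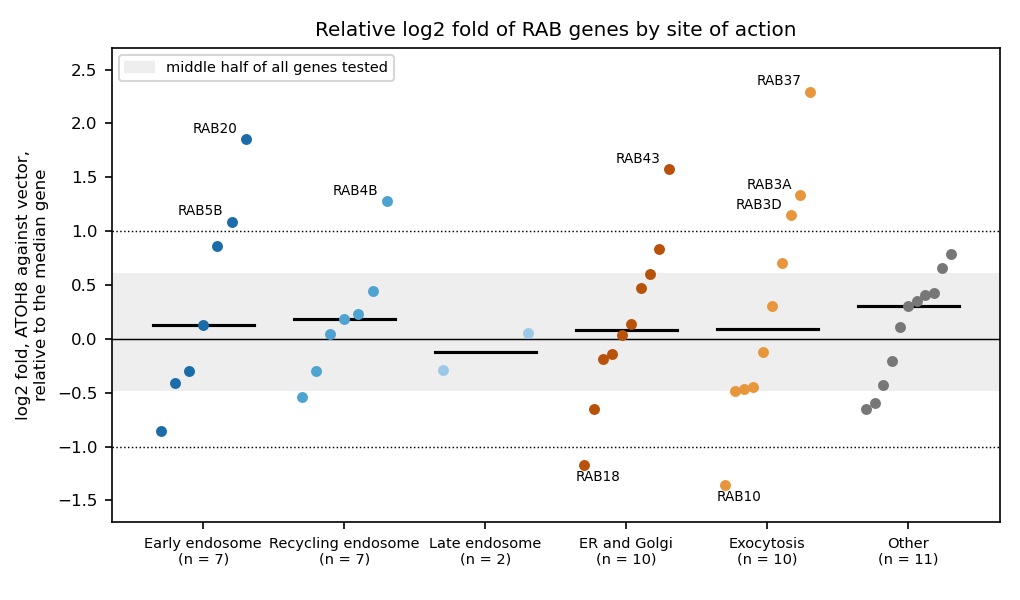
Relative log2 fold of each RAB gene (points) by the membrane it acts on, with the group median as a black bar, the middle range (lower to upper quartile) of all genes tested in grey and dotted lines at 2-fold. Every group but the late endosome pair spans the median gene widely, and the 9 genes past the dotted lines are named.

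Within the endocytic genes, the early endosome RABs ranged most, from -0.85 to 1.85 over 7 genes. RAB5A lay lowest and RAB20 highest. RAB31, which works between the Golgi and endosomes, was at 8.12 and 11.9 FPKM (0.86), while its paralog RAB22A was at 4.50 and 2.48 FPKM (-0.30) and RAB21, of integrin endocytosis, at 13.9 and 7.74 FPKM (-0.41). Recycling RABs stayed closer together, from -0.54 for RAB11A to 1.28 for RAB4B. Between those lay RAB14 (30.0 and 26.5 FPKM, 0.19), RAB15 (19.1 and 17.4 FPKM, 0.23) and RAB35 (24.6 and 15.2 FPKM, -0.30). The late endosome genes RAB7A (74.1 and 59.8 FPKM, 0.05) and RAB9A (16.1 and 9.90 FPKM, -0.29) were both near the median gene, while RAB7B was listed at only 0.0449 and 0.110 FPKM.

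Among the secretory genes, the 10 exocytosis RABs covered the widest span, from -1.35 for RAB10 to 2.30 for RAB37, with a median of 0.09. RAB8A and RAB8B, which carry cargo from the Golgi to the plasma membrane and the cilium, were at 21.6 and 11.9 FPKM (-0.45) and at 8.002 and 4.03 FPKM (-0.48). RAB26, of secretory granules, was at 5.06 and 6.71 FPKM (0.70). The 10 ER and Golgi RABs ran from -1.17 for RAB18 to 1.58 for RAB43, with a median of 0.09. Near their middle were RAB6A (36.5 and 28.9 FPKM, 0.03), RAB2A (55.8 and 37.9 FPKM, -0.19), RAB33B (2.01 and 1.12 FPKM, -0.14) and RAB30 (1.34 and 1.01 FPKM, 0.14).

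The 11 RAB genes outside both classes showed 0 calls in either direction and ran from -0.65 for RAB23 to 0.79 for RAB34. Over all genes tested 12.8% were called higher and 9.46% lower, and with so few genes nothing is read from the count. With FPKM as deposited 1 of the 11 was at least 2-fold lower, against 19% of all genes. RAB13, of tight junction traffic, was at 70.0 and 46.9 FPKM (-0.21), and RAB32, of lysosome-related organelles, at 22.9 and 19.1 FPKM (0.11). RAB24, linked to autophagy, was at 13.1 and 12.97 FPKM (0.35), RAB29, a partner of the kinase LRRK2, at 8.83 and 9.28 FPKM (0.42), and RAB12 at 16.2 and 8.96 FPKM (-0.43). RAB40B (5.42 and 5.66 FPKM, 0.41) and RAB40C (6.87 and 8.68 FPKM, 0.66), which form ubiquitin ligases, and RAB36 (1.53 and 1.44 FPKM, 0.31) completed the group.

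Some RAB genes were near the floor of the data. RAB25, the epithelial member of the RAB11 subfamily, was listed only in the vector file at 0.0848 FPKM, and RAB9B only there at 0.0339 FPKM. RAB6C, RAB19, RAB1C, RAB41, RAB42 and RAB44 were listed only in the ATOH8 file, at 0.0059 to 0.170 FPKM. The files list no 0, so an unlisted gene cannot be read as absent and no fold was computed for these 8 genes. A further 7 genes had a mean under 1 FPKM: RAB17 (1.27 and 0.542 FPKM), which serves epithelial transcytosis, was the highest of them, followed by RAB39A, RAB39B (0.535 and 0.131 FPKM), RAB40A, RAB33A, the melanosome gene RAB38 (0.0793 and 0.0864 FPKM) and RAB7B.

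Paralogs of 1 family ranged from almost equal folds to folds far apart. In 11 families with at least 2 paralogs at 1 FPKM or more there were 15 pairs, with a median gap of 0.98 on the log2 scale, against 0.71 over the 1066 other pairs of RAB genes. The gap was at least 2-fold in 6 pairs (40%, against 34.1% of the other pairs), and in 9 pairs (60%, against 49.1%) the members lay on opposite sides of the median gene. The pairs share genes, and these counts are a description only. A ratio between paralogs inside a library is unaffected by how the library was scaled. The most abundant paralog was another gene in the ATOH8 than in the vector library for 3 of the 11 families, RAB1, RAB4 and RAB27.

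The RAB5 family, which drives early endosome fusion, held the widest gap. RAB5A (ENSG00000144566, chromosome 3, 19947079 to 19985175, plus strand) and RAB5B (ENSG00000111540, chromosome 12, 55973913 to 55996683, plus strand) were at almost the same level in the vector library, 22.6 FPKM for RAB5A and 21.6 FPKM for RAB5B. In the ATOH8 library RAB5A was at 9.20 FPKM and RAB5B at 36.5 FPKM, so that the ratio of RAB5A to RAB5B went from 1.05 to 0.252. The difference of their relative log2 folds was -1.94. RAB5C (ENSG00000108774, chromosome 17, 42124976 to 42155044, minus strand), at 123 and 105 FPKM (0.13), supplied most of the family in both libraries. Its share of the summed FPKM was 73.5% in the vector and 69.6% in the ATOH8 library, while RAB5A went from 13.5% to 6.12% and RAB5B from 12.9% to 24.3%. The family sum changed less than these parts, from 167 to 150 FPKM. RAB5A was 0.98 below RAB5C on the log2 scale, and RAB5B was 0.96 above it.

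RAB11A and RAB11B, which return cargo from recycling endosomes to the surface, diverged less. RAB11A (ENSG00000103769, chromosome 15, 65726054 to 65891991, plus strand) was at 110 and 58.8 FPKM (-0.54), and RAB11B (ENSG00000185236, chromosome 19, 8389981 to 8404434, plus strand) at 28.3 and 30.0 FPKM (0.44). RAB11A remained the more abundant, with 79.6% of their sum in the vector and 66.2% in the ATOH8 library, and the sum went from 139 to 88.8 FPKM. The difference between them was -0.98.

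In the RAB4 pair the order was reversed. RAB4A was at 18.5 and 14.7 FPKM (0.05) and RAB4B at 9.96 and 19.7 FPKM, so RAB4A made up 65.0% of the pair in the vector library and 42.7% in the ATOH8 library. The RAB1 pair crossed in the same way: RAB1A went from 97.9 to 48.0 FPKM while RAB1B was at 61.7 and 66.9 FPKM (0.47), and the share of RAB1A was 61.3% and 41.8%. RAB27, of lysosome-related organelles and exosome release, crossed in favour of the A form. RAB27A was at 3.51 and 3.34 FPKM (0.31) and RAB27B at 4.71 and 2.22 FPKM (-0.47), with RAB27A at 42.7% and then 60.1% of their sum.

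In the RAB3 family, RAB3D remained the leading form (48.7% and 62.5% of the sum), RAB3A went from 8.41% to 19.7%, and RAB3B, at 3.19 and 1.99 FPKM (-0.13), from 42.8% to 17.8%. RAB2A and RAB6A held most of their pairs in both libraries, with 87.6% and 79.8% for RAB2A and 94.5% and 89.7% for RAB6A. Their paralogs RAB2B (7.92 and 9.59 FPKM, 0.61) and RAB6B (2.11 and 3.32 FPKM, 0.83) were nearer the upper end of the family. RAB8A and RAB8B, by contrast, had almost equal folds and kept shares of 73.0% and 74.7% for RAB8A.

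**Figure D3:**
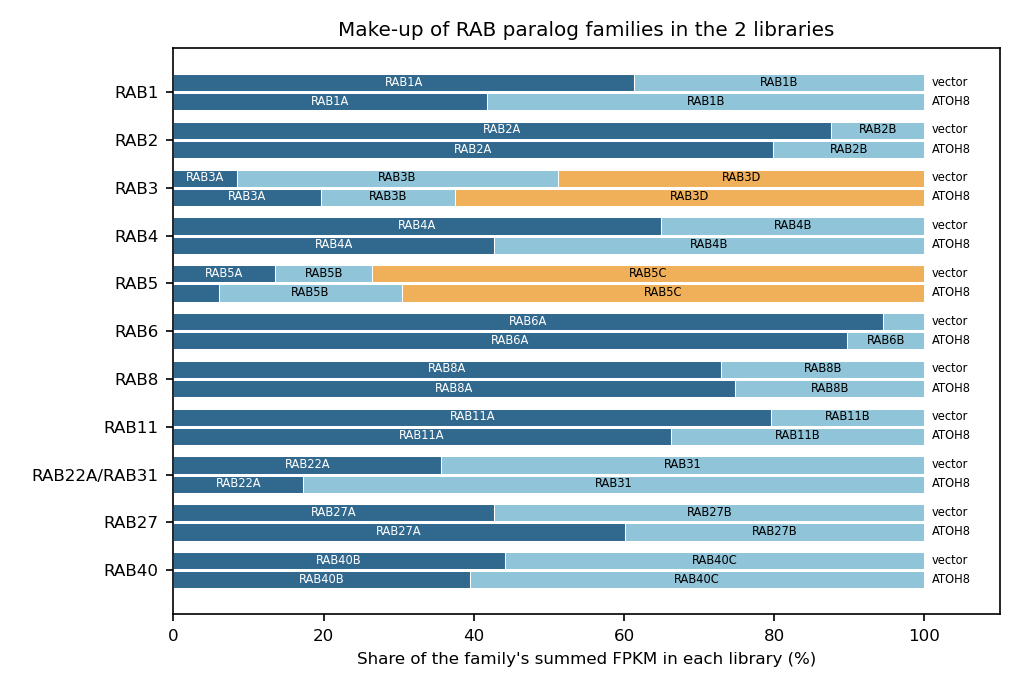
Share of each paralog in the summed FPKM of its family (0 to 100%), with the vector library above the ATOH8 library for each of 11 families. RAB5B widens from 12.9% to 24.3% as RAB5A narrows from 13.5% to 6.12%, and the larger part passes to the other paralog in the RAB1, RAB4 and RAB27 pairs.

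The folds of RAB genes followed the base composition of their transcripts, as they did across all genes. Over the 47 RAB genes the Spearman correlation of relative log2 fold with the GC content of the longest annotated transcript was 0.66 and the Pearson correlation was 0.61. Over 12313 genes the values were 0.55 and 0.51. The points share the same 2 libraries and are genes, not replicates. In the 16 most AT-rich RAB genes (35.9% to 41.0% GC) the median relative log2 fold was -0.35 and 4 lay above the median gene, and all genes in that GC range had a median of -0.59. In the 15 most GC-rich RAB genes (54.1% to 64.4%) the median was 0.47 and 13 lay above the median gene, against 0.50 for all genes in that range. Of the 15 paralog pairs, the member with the higher fold had the higher GC content in 14, the exception being RAB5B, which lay above the more GC-rich RAB5C. The 14 include RAB8A and RAB8B, only 0.03 apart in fold, and RAB3A and RAB3D, 0.19 apart. Pairs share genes, and no such share is given for the other pairs of RAB genes.

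**Figure D4:**
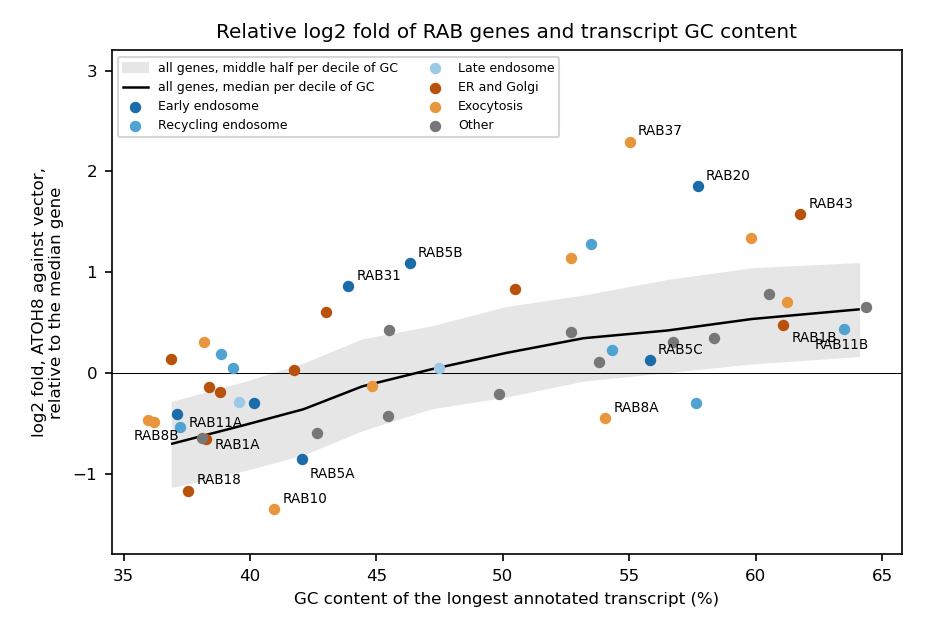
Relative log2 fold of each RAB gene against the GC content of its longest transcript in GENCODE 29, coloured by the membrane it acts on, with the median (line) and middle range, lower to upper quartile (grey), of all genes by decile of GC content. RAB11A, RAB1A, RAB11B and RAB1B lie near the line of all genes, while RAB5B, RAB31, RAB37 and RAB20 lie above it and RAB10 and RAB8A below.

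A correction that subtracts the trend of all genes with GC content gave a different set of calls. After it, 4 RAB genes were at least 2-fold higher (8.33% of all genes were) and 0 at least 2-fold lower (5.95%). The 4 were RAB37 (1.91), RAB20 (1.38), RAB5B (1.10) and RAB31 (1.05). RAB43 (0.999), RAB4B (0.95), RAB3D (0.84) and RAB3A (0.80) lay just under 2-fold, RAB10 was at -0.91 and RAB18 at -0.51. All 9 genes called before the correction kept their side of 0. This says little, since they were picked for a relative fold of at least 2. The median of all genes by decile of GC content ran only from -0.70 to 0.63. Of the 9 genes, 3 stayed past 2-fold, and of all 47 RAB genes 16 changed side. Of the pairs, RAB5A and RAB5B stayed 1.60 apart, RAB5A and RAB5C were 0.21 apart, and the gap between RAB11A and RAB11B changed sign, to 0.30 in favour of RAB11A. RAB1A and RAB1B came within 0.06 of each other, while RAB8A, at -0.80, and RAB8B, at 0.23, came to lie 1.02 apart. The gap between RAB4A and RAB4B shrank from 1.23 to 0.34, and that between RAB27A and RAB27B went from 0.77 to 0.68. Over the 15 pairs the median gap was 0.47 after the correction (0.59 over the other pairs of RAB genes), it was 2-fold or more in 3 (20%, against 23.7%), and 10 pairs kept their order. The median was 0.23 for endocytic and 0.41 for secretory genes.

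The longest run of bases shared by the longest transcripts of a pair was 14 to 55 bases. It was 14 for RAB5A and RAB5B, 20 for RAB11A and RAB11B and 55 for RAB40B and RAB40C. GENCODE 29 names 15 pseudogenes after 5 RAB genes (RAB5C, RAB9A, RAB11A, RAB28 and RAB43), and 2 of these were listed, RAB43P1 at 0.281 and 0.542 FPKM and RAB28P5 at 0.140 FPKM in the vector library only. Shares of reads taken by such copies were not tested.

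Among the genes that escort and prenylate RAB proteins, the prenylated RAB acceptor RABAC1 was at 99.6 and 163 FPKM, a relative log2 fold of 1.07, and was called higher. CHM, the RAB escort protein, was at 6.38 and 1.42 FPKM (-1.25) and RABGGTB, the catalytic subunit of RAB geranylgeranyl transferase, at 45.8 and 14.99 FPKM (-1.19). CHML, the other escort gene, named after its values were seen, was at 2.83 and 0.484 FPKM (-1.01). It reached the filter only through the vector library. All of these 3 were called lower. Of the 8 measured genes of this list 2 (25%) were called higher and 3 (37.5%) lower, against 12.8% and 9.46% over all genes tested. With so few genes nothing is read from these counts. After the GC correction the 4 genes named here were within 2-fold, RABAC1 at 0.43, CHM at -0.57, RABGGTB at -0.53 and CHML at -0.32.

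Exchange factors and GTPase-activating proteins stayed mostly within 2-fold. The shares called in the lists below stand beside 12.8% higher and 9.46% lower over all genes tested. Of 31 measured exchange factors 2 (6.45%) were called higher and 0 lower (median 0.10), with RIN1, an activator of RAB5, at 2.26 and 6.87 FPKM (1.63), DENND1C, which reached the filter only through the ATOH8 library, at 0.716 and 2.54 FPKM (1.40), RGP1 at 6.76 and 9.81 FPKM (0.84) and CCZ1B, of the RAB7 activator, at 19.4 and 7.97 FPKM (-0.83). In the TRAPP complex, which activates RAB1, 2 of 14 genes (14.3%) were called higher and 0 lower (median 0.02): TRAPPC9 at 7.90 and 23.9 FPKM (1.84) and TRAPPC6A at 14.6 and 37.0 FPKM (1.65). TRAPPC1 stood at 0.78 and TRAPPC13 at -0.74. Of 31 measured GTPase-activating proteins 4 (12.9%) were called higher and 1 (3.23%) lower (median 0.29). TBC1D2 was at 2.63 and 10.6 FPKM (2.04) and TBC1D15, which acts on RAB7, at 11.6 and 2.91 FPKM (-1.33). EVI5L, which also reached the filter only through the ATOH8 library, was at 0.815 and 2.24 FPKM (1.19). TBC1D10A stood at 1.09, and the remaining gene of the count was TBC1D16 (1.08).

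Effectors, which bind the active RABs, were mixed for the endocytic side. Of 18 measured endocytic effectors 3 (16.7%) were called higher and 2 (11.1%) lower (median -0.001). RAB11FIP4 (1.66 and 5.51 FPKM, 1.65) and RAB11FIP5 (13.3 and 22.5 FPKM, 1.07) bind RAB11, as does RAB11FIP1 (1.03), the remaining gene of the count, while RABEP1 (14.7 and 3.61 FPKM, -1.41), which binds RAB5 and RAB4, and PIK3C3 (6.93 and 1.66 FPKM, -1.21), the endosomal phosphatidylinositol kinase, were lower. The 14 measured secretory effectors had a median of 0.51, with 1 (7.14%) called higher and 0 lower. That gene was UNC13D, a RAB27 effector of granule release, at 8.13 and 23.2 FPKM (1.77). SYTL4 (1.55 and 2.97 FPKM, 0.999), OPTN (9.05 and 14.6 FPKM, 0.99), which binds RAB8, and RPH3AL (11.4 and 16.4 FPKM, 0.85) came next. These counts depended on the scaling. With FPKM as deposited, where 6.24% of all genes lay above 2-fold and 19% lay past 2-fold downwards, 2 exchange factors were at least 2-fold higher and 4 lower, among TRAPP genes 2 and 1, GTPase-activating proteins 1 and 2, endocytic effectors 1 and 5 and secretory effectors 1 and 2. After the GC correction, where the shares over all genes were 8.33% and 5.95%, 1 exchange factor (RIN1), 2 TRAPP genes (TRAPPC6A and TRAPPC9) and 1 GTPase-activating protein (TBC1D2) were at least 2-fold higher and 0 lower. Of the endocytic effectors 1 was then higher (RAB11FIP4) and 1 lower (RABEP1), and of the secretory effectors 3 were higher (UNC13D, OPTN and SYTL4) and 0 lower.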

How the data were processed

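Total RNA of 1 vector and 1 ATOH8 culture of A549 cells was sequenced. Per the file headers, each library has its own table of FPKM, deposited by the authors, beside a table of their own comparison with log2 ratios, p-values and q-values, in which 2 further FPKM columns could be matched to no label and stayed unused. CASAVA, HISAT2, Cufflinks 2.2.1 and the build hg38 (GRCh38) are named in the submitters' processing notes, without their roles; no annotation release or depth is given in the sources used here. FPKM scale each gene by length and library total, so they keep no counting error.

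Both tables were joined on the identifier and summed over a shared symbol. Log2 folds used a pseudocount of 1, genes with a mean of at least 1 FPKM, and the median of genes with a mean of at least 5 FPKM as the baseline. No statistical test between the libraries was made. For the GC correction a lowess curve was subtracted (fraction 0.3, statsmodels 0.14.6), fitted on the GC content of the longest GENCODE 29 transcript, known for 99.8% of genes tested. A locus counted as shared when another listed gene had the same locus string. The fold computation was tested on simulated data, with changes placed only in genes of at least 5 FPKM in the vector library. That test does not cover genes with lower levels, RAB37, RAB20, RAB43 and RAB3A among them. Members, classes and lists were chosen with earlier results of these data known; of each pathway list, up to 4 genes with the largest absolute fold were named, except 1 gene that is not reported here. Promoters are from RefSeq (GRCh38.p14). Alternatives were other pseudocounts, filters and scalings, the GC correction and leaving out shared loci.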

Additional observations from a re-analysis of the deposited data

How the results depend on the processing

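With no replicates, a log2 value was counted as moved when it shifted by a factor of 1.5 or more, and a count when it changed by more than 1.5 times. Shares in brackets are those of all genes under the same setting. The number of RAB genes at least 2-fold higher, 7 of 47 here (12.8%), was 2 of 47 with a pseudocount of 5 (5.15%). It was 3 of 34 with a mean FPKM of at least 5 (11.5%) and 3 of 47 with FPKM as deposited (6.24%). After the GC correction 4 of 47 were higher (8.33%). When members with a shared locus were left out 1 of 22 was, a setting without its own share over all genes. The number at least 2-fold lower, 2 of 47 here (9.46%), was 1 with a pseudocount of 5 (4.25%). It was 5 with FPKM as deposited (19%) and 0 after the GC correction (5.95%). The GC correction moved RAB5A minus RAB5C from -0.98 to -0.21 and RAB11A minus RAB11B from -0.98 to 0.30. By construction it removes the part of a fold that all genes of that GC content share, and which part of that trend is technical was not tested. RAB5A minus RAB5B lay between -2.04 and -1.60 under all the settings that gave it a value. The median of the RAB genes lay between -0.23 and 0.21. Leaving out shared loci gives no value for the 3 pairs, since a member of each shares its locus. No paired analysis was possible because each group holds 1 library, and no library could be left out. The unknown depth limits the genes near 1 FPKM most, RAB20, RAB37, RAB43 and RAB3A among them.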
